A study of Homo sapiens with 12 samples.

Results

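The genes described here handle retinoids: they take up retinol, convert it to retinoic acid, carry retinoic acid in the cell and break it down. Probe sets were taken by gene symbol from the array's annotation. Of 9 genes chosen, 8 were found, with 16 of the 54675 probe sets on the array: CYP26A1, CYP26B1, DHRS3, STRA6, CRABP2, ALDH1A2, ALDH1A3 and RDH10. CRABP1 was not analysed here, since no probe set carried its name in the annotation used. A gene is represented by its brightest probe set, 1 of 19775 genes in all. The members were read in H9, an established human embryonic stem cell line (passages 28 to 35), in which every culture carried a Tet-on construct that expresses GCNF, the orphan nuclear receptor encoded by NR6A1, once doxycycline (Dox) is added. Undifferentiated cells had no treatment (d0) or 4 days of Dox at 1 µg/ml (called d0 with Dox). Cells differentiated in medium with 15% serum are labelled as having had either 1 µM retinoic acid (RA) or 1 µg/ml Dox for 6 days. Each of the 4 groups holds 3 arrays. The labels call them biological replicates without saying how cultures were separated, and p-values here reflect array-to-array spread, which may be technical. Neither Dox without the construct nor day 6 cells without an added agent were analysed here.

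Retinol enters cells through STRA6 and is oxidised to retinaldehyde by RDH10, a step that DHRS3 runs backwards. ALDH1A2 and ALDH1A3 oxidise retinaldehyde to retinoic acid, CRABP2 carries retinoic acid to its nuclear receptors, and the cytochromes CYP26A1 and CYP26B1 degrade it. The receptors bind DNA at direct repeats of a short half-site. CYP26A1, DHRS3, STRA6, CRABP2 and the receptor gene RARB are known to be induced by retinoic acid, so that degradation and storage rise when the ligand is present. GCNF binds the same kind of half-site as a direct repeat with no spacer (DR0).

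Promoters of both degrading enzymes and of the binding protein CRABP2 are shown because retinoic acid receptors are known to act on CYP26A1 at its start. Windows from 250 bases before to 50 after a RefSeq start (GRCh38.p14) were matched by symbol for 8 of the 9 genes chosen, 16 windows in all. These include CRABP1 and leave out RDH10, whose promoter was not analysed here. They were searched on both strands for direct repeats of 4 half-sites (AGGTCA; the variant AGTTCA; also GGGTCA; and lastly GGTTCA), with 0, 1, 2 or 5 bases between (DR0, DR1, DR2 and DR5). The 150 bases before the start follow for 3 members, 5′ to 3′ on the strand of the gene. Capitals mark half-sites, and the spacer where they form a repeat.
CYP26A1 (chr10:93073743-93073892, plus strand): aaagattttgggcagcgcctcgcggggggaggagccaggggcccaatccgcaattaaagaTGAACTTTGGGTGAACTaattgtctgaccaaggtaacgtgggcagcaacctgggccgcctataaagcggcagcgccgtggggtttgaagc
CYP26B1 (chr2:72147863-72148012, minus strand): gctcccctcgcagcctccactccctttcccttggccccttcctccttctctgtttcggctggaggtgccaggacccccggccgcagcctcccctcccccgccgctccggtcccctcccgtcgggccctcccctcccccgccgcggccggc
CRABP2 (chr1:156705785-156705934, minus strand): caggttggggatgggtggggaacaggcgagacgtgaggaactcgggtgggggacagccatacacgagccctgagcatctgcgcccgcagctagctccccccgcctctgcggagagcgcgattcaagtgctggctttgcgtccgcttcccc
The capitals in CYP26A1 are a DR5, read on the opposite strand as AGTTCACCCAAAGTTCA, at -90 to -74 from the start (chr10:93073803-93073819). It was the only DR5 in the 16 windows, and the other CYP26A1 window held none. None of the 16 windows held a DR0, DR1 or DR2. Over all 35116 windows, 0.0883% held a DR5, 0.159% a DR0, 0.131% a DR1 and 0.0399% a DR2. A match describes letters in the window and is not a measured site. Among 62 other retinoid genes listed for comparison, 47 had a window, with 74 windows in all. A DR5 stood in 1 of these, that of RARB (chr3:25428210-25428226, plus strand, -53 to -37).
RARB: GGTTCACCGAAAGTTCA

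The values are linear signals, and precision is limited by having 3 arrays a group. Within a group, log2 signals of array pairs had r of 0.980 to 0.982 across probe sets. NR6A1 was set against the labels first, with 7 probe sets. With Dox at d0, 6 of them rose and 1 was not called. Between the day 6 groups 3 were higher in the Dox-labelled arrays, 3 lower and 1 not called. The 3 lower ones had risen 15.5-, 5.01- and 3.46-fold with Dox at d0, and the 3 higher ones 1.54- to 1.96-fold. The probe set with the largest rise at d0 read 46.9, 19.5 and 14.0 at d0 and 606, 660.1 and 580.1 with Dox. At day 6 it read 355, 395 and 258 under the RA label and 31.6, 14.5 and 41.6 under the Dox label, so it was high where no Dox is labelled and at the d0 level where Dox is. The brightest probe set had means of 1457 at d0, 2869 with Dox, 528 under the RA label and 1009 under the Dox label. Arrays of day 6 are therefore named by their label throughout, and each direction between them rests on it. The 9 measured pluripotency markers summed to 98656 to 105741 per array at d0 and 88507 to 91719 with Dox, against 18691 to 20997 under the RA label and 18247 to 19197 under the Dox label. Single markers differed more than these sums: NANOG read 594 to 686 under the RA label and had a mean of 36.7 ± 3.28 under the Dox label, PRDM14 means were 266 ± 20.2 and 14.1 ± 6.44, and LIN28A 7091 ± 633 and 9447 ± 346.

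Of the retinoic acid degrading enzymes, CYP26A1 had its highest signal in the Dox-labelled day 6 arrays and its lowest in the RA-labelled ones. It read 4784, 4368 and 4329.8 at d0 and 6950.1, 6392 and 6637 with Dox. Day 6 arrays gave 312, 259.9 and 241 under the RA label and 30701, 29345 and 28736 under the Dox label. No group overlapped another. On the log2(signal + 16) scale used for all fold changes, limma put CYP26A1 0.57 ± 0.09 (SE) higher with Dox at d0 (adjusted p = 0.00365). The Dox-labelled arrays lay 104-fold above the RA-labelled ones (6.70 ± 0.09, adjusted p = 2.65e-10) and 6.57-fold above d0 (adjusted p = 8.17e-09). The RA-labelled arrays lay 15.8-fold below d0 (-3.98, adjusted p = 1.01e-09). The order was therefore Dox-labelled day 6, d0 with Dox, d0 and RA-labelled day 6, and each neighbouring step passed the test.

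CYP26B1, the related enzyme, was near the dim end of the array in all groups but 1. Its main probe set read 64.5, 41.8 and 51.5 at d0, 55.8, 22.0 and 45.8 with Dox, and 32.9, 54.6 and 52.2 in the RA-labelled arrays. The Dox-labelled arrays read 5412, 5089.9 and 4722. The 9 low arrays overlapped between groups and the 3 Dox-labelled ones stood apart (log2 fold change 6.36 ± 0.23 against the RA-labelled arrays, adjusted p = 8.65e-08). CYP26B1 did not pass with Dox at d0 (-0.30 ± 0.23, adjusted p = 0.481), nor did RA-labelled arrays against d0 (-0.14, adjusted p = 0.674). Its other probe set stayed dim, at 34.3 ± 11.9 (SD) under the RA label and 63.0 ± 48.1 under the Dox label, and was not called between them (0.40, adjusted p = 0.692 over all probe sets). Averaging both probe sets lowered the day 6 difference to 3.38.

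**Figure D1:**
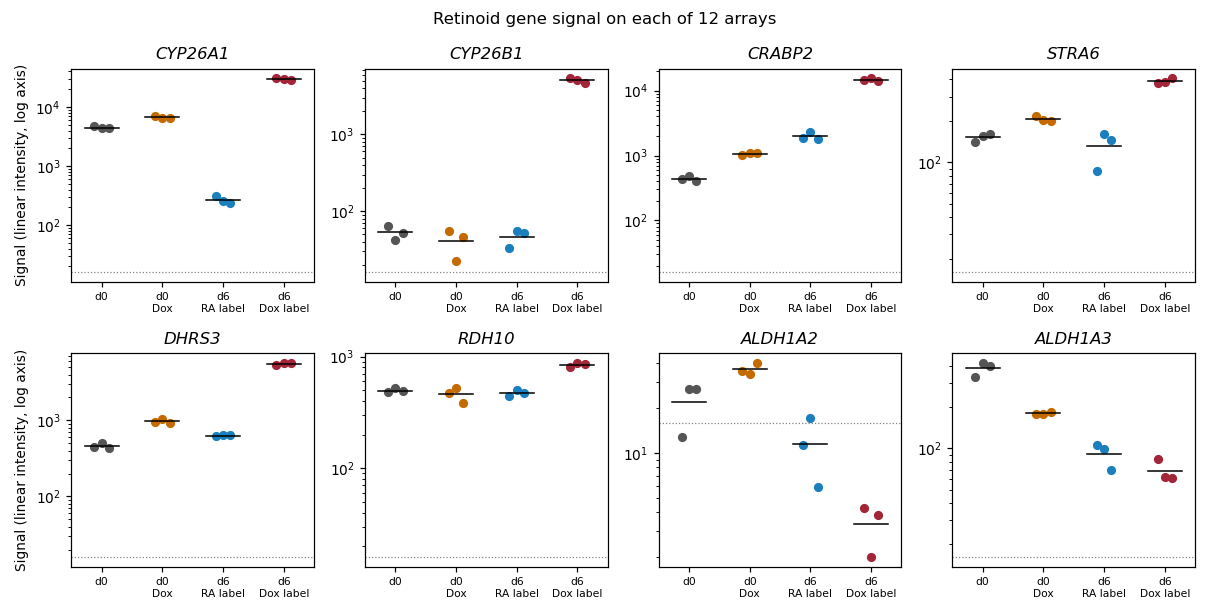
Signal of the brightest probe set of each gene (vertical axis, linear intensity on a log axis) on the 12 arrays, by group; points are arrays, bars are group means of 3 and the dotted line marks a signal of 16. CYP26A1, CYP26B1, CRABP2, STRA6, DHRS3 and RDH10 are highest in the 3 Dox-labelled day 6 arrays, while ALDH1A2 and ALDH1A3 have their lowest means there.

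CRABP2, the binding protein that delivers retinoic acid to its receptors, rose at each step from d0. It read 429.6, 488 and 408 at d0, 1004, 1084 and 1114 with Dox, 1891, 2278 and 1804 in the RA-labelled arrays and 14695, 15521 and 14196 in the Dox-labelled arrays. The 4 groups did not overlap. CRABP2 rose 2.37-fold with Dox at d0 (log2 1.24 ± 0.10, adjusted p = 5.09e-05), and was 7.42-fold higher in the Dox-labelled than the RA-labelled arrays (adjusted p = 7.65e-08). Unlike CYP26A1, it was higher in RA-labelled arrays than at d0 (2.13 ± 0.10, adjusted p = 5.92e-08) and than at d0 with Dox (0.88, adjusted p = 4.11e-05).

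STRA6, the membrane receptor for retinol-binding protein, changed less. Its brightest probe set read 142, 155 and 161 at d0, 216, 204 and 199 with Dox, 86.6, 161 and 145 in the RA-labelled and 376, 385 and 408 in the Dox-labelled arrays. The Dox-labelled arrays stood above all others (2.83-fold above RA-labelled, adjusted p = 0.000129, and 1.27 on the log2 scale above d0, adjusted p = 0.000117). With Dox at d0 the arrays did not overlap but STRA6 missed the threshold (0.40 ± 0.17, adjusted p = 0.165), and it passed when only those 6 arrays were fitted (adjusted p = 0.0453). A second STRA6 probe set was also higher in Dox-labelled than RA-labelled arrays (0.60, adjusted p = 0.0265 over all probe sets), and a dimmer one was not called (0.88, adjusted p = 0.0546). These 2 did not place the Dox-labelled arrays above d0 with Dox (-0.38 and -0.26, adjusted p = 0.0894 and 0.528), where the brightest did (0.87, adjusted p = 0.00175 over genes). The mean of the 3 gave 0.08 (adjusted p = 0.635), so that call rests on 1 probe set. The same mean placed RA-labelled arrays below d0 (-0.61, adjusted p = 0.000992), where the brightest probe set did not (-0.24, adjusted p = 0.295). It also lowered the difference of Dox-labelled arrays from RA-labelled ones to 0.99 and from d0 to 0.39, with both calls kept.

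Among enzymes between retinol and retinaldehyde, DHRS3 was highest in the Dox-labelled day 6 arrays and lowest at d0. It read 443, 507 and 436 at d0, 956, 1042 and 911 with Dox, 617, 634 and 641 in the RA-labelled and 5324, 5623 and 5648 in the Dox-labelled arrays, with no overlap between groups. It rose 2.06-fold with Dox at d0 (1.04 ± 0.08, adjusted p = 2.98e-05) and was 8.58-fold higher in the Dox-labelled than the RA-labelled arrays (3.10 ± 0.08, adjusted p = 5.59e-09). The RA-labelled arrays were above d0 (0.44, adjusted p = 0.000799) and below d0 with Dox (-0.61, adjusted p = 8.84e-05). RDH10, which runs the opposite reaction, moved only in 1 group. It read 476, 519.6 and 492 at d0, 468, 528 and 386 with Dox, 446, 498 and 469 in the RA-labelled and 804, 872 and 849 in the Dox-labelled arrays. The first 9 arrays overlapped across groups and the Dox-labelled arrays lay above them (0.82 ± 0.11 against RA-labelled, adjusted p = 0.000307). A second RDH10 probe set gave 1.00 for the same difference (adjusted p = 0.000937 over all probe sets). The remaining 2 were dimmer and not called (0.69, adjusted p = 0.0695, and -0.38, adjusted p = 0.347). The mean of the 4 gave 0.53 (adjusted p = 0.012).

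The retinaldehyde dehydrogenases, which make retinoic acid, had their lowest means in the Dox-labelled day 6 arrays, where the other 6 genes had their highest. ALDH1A3 read 335, 422 and 405 at d0, 179, 179 and 186 with Dox, 106, 98.4 and 69.7 in the RA-labelled and 83.7, 61.6 and 60.8 in the Dox-labelled arrays. It fell 2.03-fold with Dox at d0 (-1.02 ± 0.15, adjusted p = 0.00196) and was lower again at day 6 (-1.92 from d0 to RA-labelled arrays, adjusted p = 1.98e-06, and -1.23 from d0 with Dox to Dox-labelled ones, adjusted p = 7.13e-05). The day 6 groups overlapped and did not differ by the test (-0.34 ± 0.15, adjusted p = 0.141), which they did without replicate 3 of the RA-labelled arrays (-0.49, adjusted p = 0.0317). The other ALDH1A3 probe set had group means of 13.0 to 15.0, near the floor. Averaged with it the change with Dox at d0 was -0.55 (adjusted p = 0.217) and that of Dox-labelled arrays against d0 with Dox -0.58 (adjusted p = 0.0846), while the fall from d0 to the RA-labelled arrays kept its call at -0.91. ALDH1A2 was dim everywhere, so the size of its differences depends on the pseudocount. It read 12.7, 26.8 and 26.8 at d0, 35.7, 34.2 and 40.2 with Dox, 11.2, 17.2 and 5.94 in the RA-labelled arrays, and at most 4.25 in the Dox-labelled ones (mean 3.36 ± 1.19). It was lower in Dox-labelled day 6 arrays than at d0 with Dox (-1.44 ± 0.18, adjusted p = 7.40e-05) and than at d0 (-0.96, adjusted p = 0.00119). With Dox at d0 it missed the threshold (0.49, adjusted p = 0.111), as it did between the day 6 groups, whose arrays did not overlap (-0.49, adjusted p = 0.0754). That last difference passed with a pseudocount of 1 (-1.45, adjusted p = 0.0241) and without replicate 3 of the RA-labelled arrays (-0.64, adjusted p = 0.0327). From d0 to the RA-labelled arrays the difference was -0.47 (adjusted p = 0.0507), and it passed without replicate 1 of d0 (-0.66) or replicate 2 of the RA-labelled arrays (-0.62). A second ALDH1A2 probe set was below a mean of 16 in every group and was not called in any of these comparisons.

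Set side by side, Dox in undifferentiated cells raised CYP26A1, DHRS3 and CRABP2 and lowered ALDH1A3, while CYP26B1, STRA6, ALDH1A2 and RDH10 did not pass. That is 3 of 8 higher and 1 of 8 lower, where 7.75% and 5.16% of all genes were called higher and lower. The median log2 fold change of the 8 was 0.45, against 0.03 over all genes. Between the day 6 groups 6 of 8 were higher in the Dox-labelled arrays and 0 lower, against 13.7% and 12.2% of all genes. The 2 not called were ALDH1A2 and ALDH1A3, both at an unadjusted p of 0.0221 and 0.0514 and both lower in mean. The median was 2.20, against 0.00 over all genes. Over probe sets, where 5.81% of all were called with Dox at d0 and 15.5% between the day 6 groups, 4 and 8 of the members' 16 were called.

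From day 0 to day 6 the members moved by label. In RA-labelled arrays against d0, CRABP2 and DHRS3 rose, CYP26A1 and ALDH1A3 fell and the other 4 were not called, where 25.3% of all genes were higher and 25.2% lower. Dox-labelled arrays differed from d0 with Dox for all 8, 6 higher and 2 lower, where 22.2% and 23.9% of all genes were called. Centring each array on its median moved that background from 4392 higher and 4728 lower genes to 5407 and 3606 and the median of all genes from -0.03 to 0.11 on the log2 scale, a shift smaller than any of these 8 differences. Against untreated d0 the Dox-labelled arrays gave the same 6 higher and 2 lower, with 24.6% and 23.8% of all genes called. RA-labelled arrays against d0 with Dox had CRABP2 higher and CYP26A1, DHRS3, STRA6, ALDH1A2 and ALDH1A3 lower, with 23% of all genes higher and 25.3% lower. Of these, STRA6 lost its call when only the 6 arrays were fitted (adjusted p = 0.0579), and ALDH1A2 and ALDH1A3 lost theirs with the mean of their probe sets (-0.37 and -0.36, adjusted p = 0.164 and 0.279). These comparisons share control arrays and are not independent of each other.

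**Figure D2:**
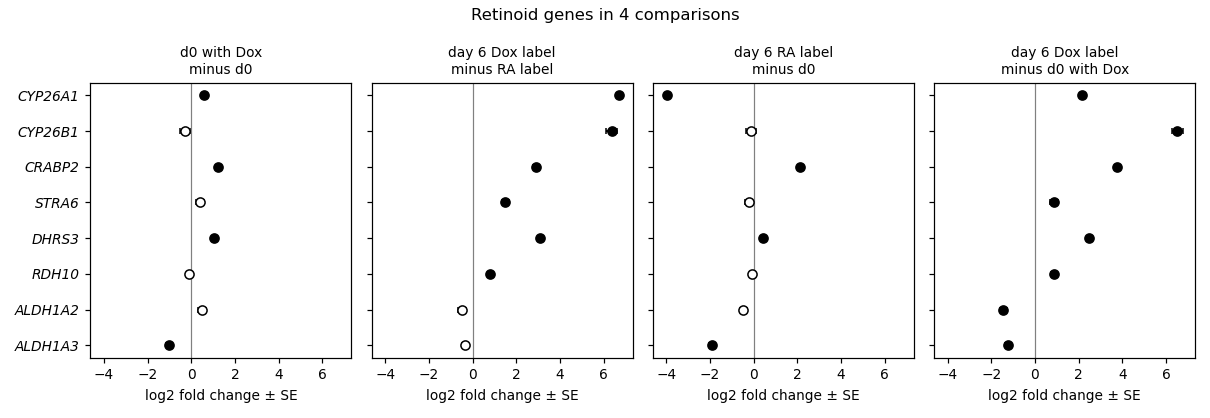
Log2 fold change (horizontal axis, on the log2(signal + 16) scale, with standard errors as bars) of the 8 genes in 4 comparisons; filled points passed an adjusted p of 0.05 in limma and open points did not. CYP26A1 lies at 6.70 between the day 6 groups and at -3.98 from d0 to the RA-labelled arrays, and CYP26B1 lies near 0 except where Dox-labelled arrays are compared.

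Whether the change to day 6 differed between the arms was tested as the Dox-labelled change (from d0 with Dox) minus the RA-labelled change (from d0). The difference was above 0 for 7 of 8 genes and below 0 for ALDH1A2, where 11.7% and 12.5% of all genes were called. It was 6.66 ± 0.33 for CYP26B1 (adjusted p = 1.05e-06) and 6.13 ± 0.13 for CYP26A1 (adjusted p = 6.11e-09), which rose in 1 arm and fell in the other. For DHRS3 it was 2.06, for CRABP2 1.65, for STRA6 1.10 and for RDH10 0.93. ALDH1A3 fell in both arms, less so in the Dox-labelled one (0.69 ± 0.21, adjusted p = 0.0426), and this difference missed the threshold with the mean of its probe sets (0.33, adjusted p = 0.578) and when any 1 of 9 of the 12 arrays was left out.

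The members known to be induced by retinoic acid were thus read against the day 6 labels. CYP26A1, DHRS3, STRA6 and CRABP2 were each highest in the arrays labelled Dox, for which no added retinoic acid is labelled. For STRA6 this holds for its brightest probe set only. The dimmer ones had their highest means at d0 with Dox (184 and 54.6, against 137 and 43.2 under the Dox label). In the arrays labelled RA, CYP26A1 was below untreated cells on every array, STRA6 was not called against d0, DHRS3 was 1.36-fold above d0 and CRABP2 was 4.37-fold above it. RARB read 73.8, 34.2 and 64.7 at d0 and 92.5, 108 and 118 with Dox. Day 6 arrays gave 233, 189 and 239 under the RA label and 1989, 1967 and 1957 under the Dox label (3.08 ± 0.19 between them, adjusted p = 2.76e-06). With the mean of its probe sets the RARB difference was 1.14 (adjusted p = 0.000218). CYP26A1 and RARB, whose windows hold the DR5 repeats printed above, were thus both highest in the Dox-labelled arrays. So were CYP26B1, DHRS3 and CRABP2, whose windows hold no DR5, and whether the repeat bears on these levels was not tested. In RA-labelled arrays RARB was above d0 (1.72, adjusted p = 2.78e-05) where CYP26A1 was below it. With Dox at d0 RARB also rose (0.77, adjusted p = 0.0274); its comparisons with Dox at d0 and from d0 to the RA-labelled arrays fall outside the rule for named genes and were chosen after their values were seen. Whether the day 6 labels stand for the treatments the cultures had was not tested and cannot be told from these arrays alone.

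**Figure D3:**
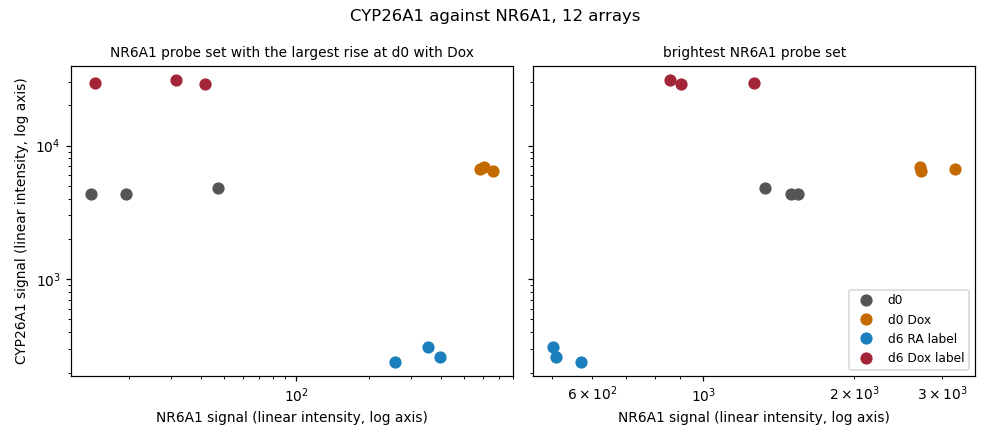
CYP26A1 signal (vertical axis) against NR6A1 signal (horizontal axis) on the 12 arrays, both linear intensities on log axes, for the NR6A1 probe set with the largest rise at d0 on the left and the brightest one on the right; colours are the label groups. On the left the RA-labelled arrays (258 to 395 for NR6A1) lie toward d0 with Dox (580.1 to 660.1) and the Dox-labelled arrays toward d0. On the right both day 6 groups lie below d0 with Dox, the RA-labelled arrays lowest.

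Of 14 further retinoic acid target genes listed for comparison, 11 were measured. With 9 higher and 0 lower in the Dox-labelled than the RA-labelled arrays they had a median of 3.14, led by RARRES2, which encodes chemerin (16.1 ± 2.66 to 1325 ± 109), and the hindbrain gene HOXB1 (31.8 ± 10.9 to 956 ± 149.9). Of all genes 13.7% were called higher and 12.2% lower there. The mean of its probe sets lowered the HOXB1 difference from 4.36 to 2.73. At d0, 2 rose and 2 fell with Dox, where 7.75% and 5.16% of all genes did. MEIS2, a homeobox gene, rose from 252 ± 57.0 to 2270.3 ± 78.6 and RARRES2 fell from 1165 ± 162 to 576 ± 59.4. In RA-labelled arrays against d0, 7 of the 11 were higher and 2 lower, with a median of 0.69. Of all genes 25.3% were called higher and 25.2% lower there. MEIS2 (to 2148 ± 42.3) and HOXB2 (70.1 ± 12.9 to 289 ± 41.5) rose in that comparison, and RARRES2 fell.

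Of 48 other genes of the pathway, 41 were measured. Dox at d0 raised 4, lowered 1 and left 36 not called, where 7.75% and 5.16% of all genes were called higher and lower. Between the day 6 groups 8 stood higher under the Dox label, 6 lower and 27 not called, with a median of 0.09, where 13.7% and 12.2% of all genes were called. Both sets of counts lie near these shares. LRP2, an endocytic receptor that takes up retinol-binding protein, rose with Dox at d0 from 117 ± 26.2 to 809.8 ± 34.8 (2.65, adjusted p = 7.52e-06) and stood at 91.6 ± 20.6 under the RA label and 937 ± 48.6 under the Dox label (3.16, adjusted p = 6.55e-07). LRAT, which esterifies retinol for storage, fell from 535 ± 51.8 at d0 to 50.3 ± 13.8 in the RA-labelled arrays (-3.07, adjusted p = 5.48e-08) and read 319 ± 36.8 in the Dox-labelled ones. TTR, the blood carrier of retinol-binding protein, was higher in both day 6 groups than at day 0, with a wide spread in RA-labelled arrays (645 ± 389). DGAT1, an acyltransferase, was slightly lower in Dox-labelled arrays (-0.25, adjusted p = 0.0337). That call was lost with median centring (-0.22, adjusted p = 0.0898) and without any 1 of 5 of the 6 day 6 arrays.

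Of 19 measured enzymes of retinol and retinal oxidation beside the members, 3 were lower at day 6 under the Dox label and 1 higher, near the 12.2% and 13.7% of all genes. The lower ones include RDH11, a retinal reductase (-0.60, adjusted p = 0.0208). The RDH11 call was lost without replicate 3 of the RA-labelled arrays (-0.46) or replicates 1 or 3 of the Dox-labelled ones (-0.56 and -0.58), and with the mean of its probe sets (-0.35). HSD17B6 fell in both arms to day 6 (-0.87 and -1.28). FABP5, which can carry retinoic acid to another receptor class, fell with Dox at d0 (16222 ± 833 to 11015 ± 662, -0.56, adjusted p = 0.00403) and was higher in Dox-labelled than RA-labelled arrays (0.43). Of 6 receptors, 3 were higher and 0 lower under the Dox label, where 13.7% and 12.2% of all genes were. RARA stood at 318 ± 58.4 and 648 ± 23.7 (1.01, adjusted p = 0.00272, and 0.60 with the mean of its probe sets). RXRB rose from 459 ± 90.7 at d0 to 1182 ± 128 in RA-labelled arrays (1.35), a call lost with the mean of its probe sets (0.51, adjusted p = 0.0533). Of 6 cofactors, 1 was higher and 2 lower under the Dox label, where 13.7% and 12.2% of all genes were. NCOA2, a coactivator, was slightly lower there (-0.23, adjusted p = 0.033). That call was lost with median centring (-0.20) and with the mean of its probe sets (-0.21), among other settings. NRIP1, a ligand-dependent corepressor of nuclear receptors, rose with Dox at d0 (943 ± 63.2 to 1657 ± 15.3, 0.81). Its means were 2603 ± 511 under the RA label and 8089 ± 503 under the Dox label (1.65, adjusted p = 1.30e-05). LCOR, another such corepressor, rose at d0 with Dox (0.71) and in both arms to day 6 (1.13 and 0.27). The last of these missed the threshold without replicate 3 of the Dox-labelled arrays (0.23, adjusted p = 0.0574).

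**Figure D4:**
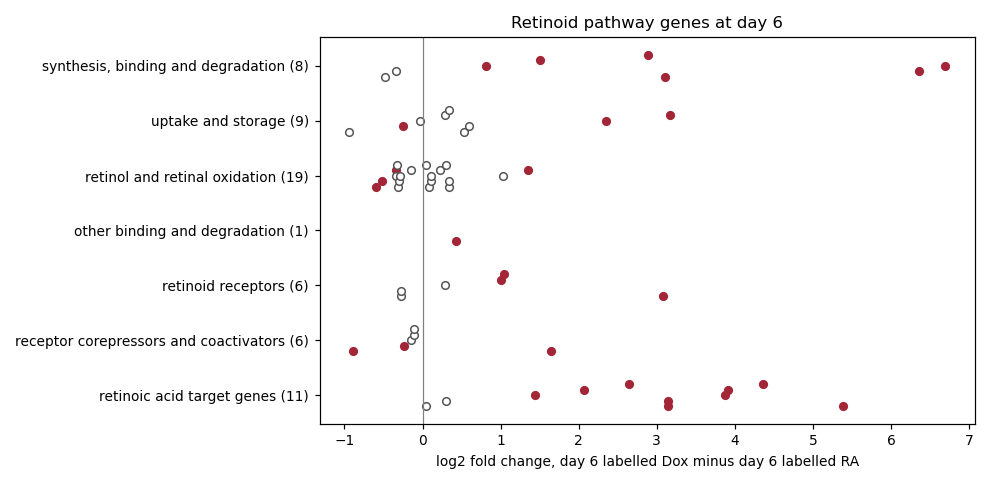
Log2 fold change of Dox-labelled minus RA-labelled day 6 arrays (horizontal axis) for each measured gene, by list with the number of genes in brackets; filled points passed an adjusted p of 0.05 and vertical scatter within a list has no meaning. The synthesis, binding and degradation genes reach 6.70 and the target genes 5.39, while most oxidation enzymes lie near 0.

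Profiles over the 12 arrays, each gene centred on its own mean, were compared by root mean square distance with 9888 genes at or above the median level. This is a description of 4 groups of arrays. Nearest to CYP26A1 were NR5A2 (0.68 on the log2 scale) and RARRES2 (0.91). NR5A2 read 347, 260.3, 23.7 and 1512 in d0, d0 with Dox, RA-labelled and Dox-labelled arrays. Nearest to CYP26B1 were IGFBP6 (1.04) and NEFM (1.09), and to DHRS3 ACKR3 (0.32) and WDR86 (0.40). CRABP2 was nearest to RARB (0.33) and MSX2 (0.34), STRA6 to NETO2 (0.17) and CCDC85C (0.20), and RDH10 to UNC5B and CDIN1 (both 0.10). The falling genes stood with others: ALDH1A3 with ZNF398 (0.21) and MRS2 (0.23), and ALDH1A2 with SLCO1A2 (0.18) and PCDHB15 (0.19).

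Summed signals of markers of other cell types also differed between groups, but bright genes carry these sums and not every marker followed them. Summed signal of 7 neural crest markers was 1121 to 1189 at d0, 1647 to 1802 with Dox, 3607 to 3857 in the RA-labelled and 7738 to 7916 in the Dox-labelled arrays. Those of 12 mesoderm markers were 803 to 886, 750.3 to 860.0, 1114 to 1939 and 4642 to 5399, with HAND2 under a mean of 16 in each group. For 8 endoderm and liver markers the sums were 674 to 819, 864 to 1001, 2536 to 4789 and 9827 to 12074, and for 8 of fibroblasts and mesenchyme 24531 to 27056, 29627 to 30247, 76871 to 89341 and 95518 to 99489. Sums of 8 trophoblast and amnion markers were 5095 to 5376 under the RA label and 11327 to 11833 under the Dox label, with CGA and ELF5 under 16 in each group. Neural and endothelial sums differed less, at 8273 to 8645 against 8404 to 9078 and 1722 to 1867 against 1394 to 1536. No marker was at 0. Means under the RA and Dox labels were 541 and 2880 for SOX9 but 328 and 227 for PAX3, both neural crest markers. For mesoderm they were 986 and 3604 for PDGFRA and 87.9 and 79.6 for TBXT. For endoderm they were 1580 and 8032 for GATA6 and 65.4 and 66.8 for SOX17. Among trophoblast and amnion markers KRT7 had 1831 and 5024, while TFAP2C had 466 and 582, below its 1319 at d0. For neural markers they were 7988 and 7908 for TUBB3, which carried most of that sum, and 277 and 511 for MAP2. For endothelium they were 500 and 111 for TIE1 but 257 and 364 for KDR. As a mark of RNA quality, ACTB signal at the 3′ end over that at the 5′ end was 3.24 ± 0.14 at d0, 3.86 ± 0.01 with Dox, 2.59 ± 0.29 in RA-labelled and 2.33 ± 0.06 in Dox-labelled arrays. The same ratio for GAPDH was 1.53 ± 0.06, 1.62 ± 0.06, 1.35 ± 0.08 and 1.46 ± 0.02, which orders the day 6 groups the other way. In such bulk samples more cells of a type and more RNA per cell cannot be told apart, and the part of cell makeup or RNA quality in the values of the retinoid genes was not tested.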

How the data were processed

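RNA of H9 cells was hybridised, biotin-labelled, to 12 arrays. The deposited values are intensities, linear by their range. The authors' background correction and probe summary are not given in the sources here. Each array's signal is relative, so only signal against the rest of an array is compared. Probe sets were named from the platform annotation (41097 of 54675 with 1 symbol, updated through the gene ID for 41043), and each of 19775 genes was represented by its brightest probe set on average. Values were tested as log2(intensity + 16) with limma 3.58.1 (R 4.3.3, lmFit and eBayes) on all 12 arrays, a mean per group, with 8 residual degrees of freedom and Benjamini-Hochberg adjustment over all genes. Genes under an adjusted p of 0.05 are called, and rose and fell are used only of these. The fit was tested on simulated data. The pseudocount understates the change of dim genes. Members, lists and comparisons were chosen with earlier results of these data known. Genes beside the members were named by a fixed rule: in each list and comparison, up to 2 largest rises and 2 largest falls among called genes whose higher group mean is at or above the median gene, and the 2 genes nearest in profile to each member. Alternatives were quantile normalization, median centring, pseudocounts of 1 and 64, a filter on dim genes, mean probe sets, all probe sets, a trended robust variance, the 6 arrays alone, a replicate block and leaving out each array. No scan dates were used here, so batches were not tested. Promoter windows came from RefSeq (GRCh38.p14).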

Additional observations from a re-analysis of the deposited data

Results flagged for a closer look

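The change from day 0 to day 6 differed between the arms, by a test of the difference itself, for all 8 retinoid genes. Of all genes, 11.7% were called higher and 12.5% lower by that test. The size of that difference on the log2 scale, Dox-labelled arm minus RA-labelled arm, was 6.13 for CYP26A1, 6.66 for CYP26B1, 2.06 for DHRS3, 1.10 for STRA6, 1.65 for CRABP2, 0.93 for RDH10, 0.69 for ALDH1A3 and -0.97 for ALDH1A2. CYP26A1 was the only one with a called rise in 1 arm and a called fall in the other. For ALDH1A2 the difference was lost with the mean of its probe sets (-0.42, adjusted p = 0.347) and with a trended robust variance (adjusted p = 0.068), and both its day 6 group means lay under a signal of 16. For ALDH1A3 it was lost with the mean of its probe sets (0.33, adjusted p = 0.578), a pseudocount of 1 (adjusted p = 0.084), p adjusted over all probe sets (0.0719), the replicate block (0.0636) and without any 1 of 9 of the 12 arrays (0.0533 to 0.091). The mean of probe sets lowered CYP26B1 to 3.89 and STRA6 to 0.68, with calls kept. The arms differ in labelled agent and in their day 0 group, so this difference also holds that of the day 0 groups.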

How the results depend on the processing

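Of 524 values of the 8 genes under settings other than leaving out an array, 509 kept their direction where called and their side of the threshold, 12 lost a call, 3 gained one and 0 reversed. Of 384 values with 1 array left out, 371 did so, 9 lost a call, 4 gained one and 0 reversed. Called values of CYP26A1, CRABP2, DHRS3, RDH10 and, against Dox-labelled arrays, CYP26B1 kept their call in each of these that tested them. Testing only genes at or above the median level left 4 members (CYP26A1, DHRS3, CRABP2 and RDH10), which by construction lowered the members called to 4 in Dox-labelled day 6 arrays against d0 with Dox, 4 against d0, 3 in RA-labelled arrays against d0 with Dox, and 4 for the difference of the arms. The count of all genes called with Dox at d0 was 2552 in all, 1676 with p adjusted over all probe sets and 1522 on the 6 arrays alone. With the replicate block 4 members were called with Dox at d0 and 6 between the day 6 groups, as without it, and 1 call was lost, ALDH1A3 in the difference of the arms (0.69, adjusted p = 0.0636). By label, arrays of different groups share only a replicate number. Deviations of same-numbered arrays correlated at -0.02 to 0.16 and, between the day 6 groups, at 0.03 to 0.10. Differently numbered arrays gave -0.17 to 0.07. For Dox-labelled arrays against d0 with Dox all same-numbered values (0.02 to 0.08) lay above the others (at most 0.01). Against d0 they (-0.02 to -0.01) lay within the others (-0.03 to 0.05). Whether same-numbered arrays share a source was not tested. No detection calls were used here, so signals near 16, as in ALDH1A2 and the second probe sets of CYP26B1 and ALDH1A3, have no certain order.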

Other observations

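RARRES2, a retinoic acid target in the lists for comparison, held a DR0 in its promoter window, the spacing that GCNF binds. Of 47 listed genes with a window, 2 had a DR0, RARRES2 and STRA8, and none of the 16 windows searched for the genes above did, which include CRABP1 and not RDH10. STRA8 was not measured here.
RARRES2 (chr7:150341823-150341834, minus strand, -205 to -194): GGGTCAGGGTCA
RARRES2 fell with Dox at d0 from 1165 ± 162 to 576 ± 59.4 (-0.99, adjusted p = 0.000657 in limma). Day 6 means were 16.1 ± 2.66 under the RA label and 1325 ± 109 under the Dox label. Both half-sites of this DR0 are GGGTCA and not AGGTCA. Binding was not measured, and whether the repeat bears on the fall of RARRES2 was not tested. Counted by window, 2 of the 74 windows of the listed genes held a DR0, and the share of all windows with a DR0 was 0.159%.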
